A study of Homo sapiens with 12 samples.

Results

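Changes shared by 3 drug-resistant melanoma lines were measured against the drug-sensitive line they came from. Members were 2412 of 17114 tested genes (23497 in the table), chosen by a rule of significance, sign and size: the mean of the 3 resistant lines differed from the sensitive line, the 3 separate line differences had the same sign, the highest and lowest of them lay within 1.5-fold of each other, and the smallest log2 difference was at least 0.5 of the largest. WM1366 is a human melanoma cell line with mutant NRAS, and all 12 libraries carry that background. The sensitive line received DMSO, the solvent control. The EB-resistant line is resistant to encorafenib with binimetinib, the VC-resistant line to vemurafenib with cobimetinib and the DT-resistant line to dabrafenib with trametinib, in each case a BRAF inhibitor with a MEK inhibitor. Each group has 3 libraries from independent experiments, numbered 2, 5 and 6, lysed 72 h after seeding. Every drug pair is represented by 1 line, so errors and p values describe spread between experiments and not between separately derived lines. Resistance, the presence of drug and culture history differ together between each resistant line and the parent and cannot be told apart.

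NRAS passes growth signals from receptor tyrosine kinases through RAF, MEK and ERK kinases. Active ERK induces its own inhibitors, among them DUSP and SPRY proteins, and transcription factors and cyclins that drive division. BRAF inhibitors can activate the pathway where RAS is mutant and BRAF is not, and MEK inhibitors block it further down. Melanoma cells that adapt to such drugs are known to shift between pigmented, neural crest-like and dedifferentiated states.

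Library totals ran from 40491309 to 54495132 counts. Mitochondrially encoded mRNAs took 1.07 to 2.69% of counts and ribosomal protein genes 4.9 to 7.44%, the latter highest in the VC-resistant libraries. No library repeated another: counts of any 2 libraries of a group differed by 10.7 to 64.4 times the variance that counting gives. Levels are in CPM, a gene's counts relative to the composition-scaled total of its library, and can be compared between libraries but not between genes, since they are not divided by gene length. Of 18 melanocyte lineage genes 12 were in the table and 10 tested. MITF, the regulator of that lineage, was present at 40.7 to 51.7 CPM in sensitive and 50.3 to 72.9 CPM in resistant libraries. PMEL, a pigment granule protein, did not exceed 0.935 CPM in any library. Markers of macrophages summed to at most 1.65 CPM (7 of 10 in the table, with LYZ at 0 in the EB-resistant line), and those of endothelium to at most 7.38 CPM (6 of 8 in the table, with EMCN at 0 in the sensitive and KDR at 0 in the VC-resistant line). Keratinocyte markers summed to 16.1 to 23.9 CPM in all groups (4 of 9 in the table, with CDH1 at 0 in the DT-resistant line). The 3 T cell markers in the table, of 9, summed to 118 to 160 CPM in sensitive and 145 to 449 CPM in resistant libraries. Most of this was IL7R (140 CPM on average in the sensitive line), whereas TRAC, a chain of the T cell receptor, averaged 3.44 CPM in the sensitive and at most 0.124 CPM in the resistant lines.

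Against the sensitive line, the mean of the 3 resistant lines differed for 10141 genes, 59.3% of those tested. Of these, 4947 genes were higher (28.9%) and 5194 lower (30.3%), and the median log2 fold change of all tested genes was -0.0092. In bulk RNA, fewer cells expressing a gene and less RNA per cell cannot be told apart. The 3 line differences shared their sign for 8145 genes, 47.6% of those tested, and 1996 genes passed on the mean although a line went the other way. The size limits left 2412 common genes (14.1%), 1180 of them higher (6.89%) and 1232 lower (7.2%). Since the contrast and the 3 differences chose these genes, their fold changes, p values and lack of overlap between groups are descriptions of them. The 3 differences also share the same 3 sensitive libraries, so an odd sensitive library moves all of them together.

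Most common changes were small. The median fold was 1.59 among the higher and 1.56 among the lower genes, and 1917 of the 2412 changed by less than 2-fold. Among genes of the same sign that changed at least 4-fold, 59 of 670 higher and 20 of 428 lower genes met the size limits. In the single-line tests 1981 of the common genes were called in every line, where the EB-resistant line had 28.5% of tested genes higher and 27.6% lower, the VC-resistant line 27.6% and 27.4%, and the DT-resistant line 29.8% and 29.3%. All 9 resistant libraries lay on one side of all 3 sensitive libraries for 2052 of the 2412 common genes. Of all tested genes 28.6% reached this state together with a call. The same libraries chose the common genes, so a higher share among them follows from the rule. Common genes were protein-coding in 86% of cases, against 76.6% of tested genes, and long noncoding in 9.74%, against 15%. Their median level was 31.9 CPM, against 14.4 CPM over all tested genes. A test of equality of the 3 resistant lines still called 582 of the 2412 common genes. Over all tested genes it called 11125 of 17114 (65%). The size limits bound the differences between these lines, so a lower share among common genes follows from the rule.

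**Figure D1:**
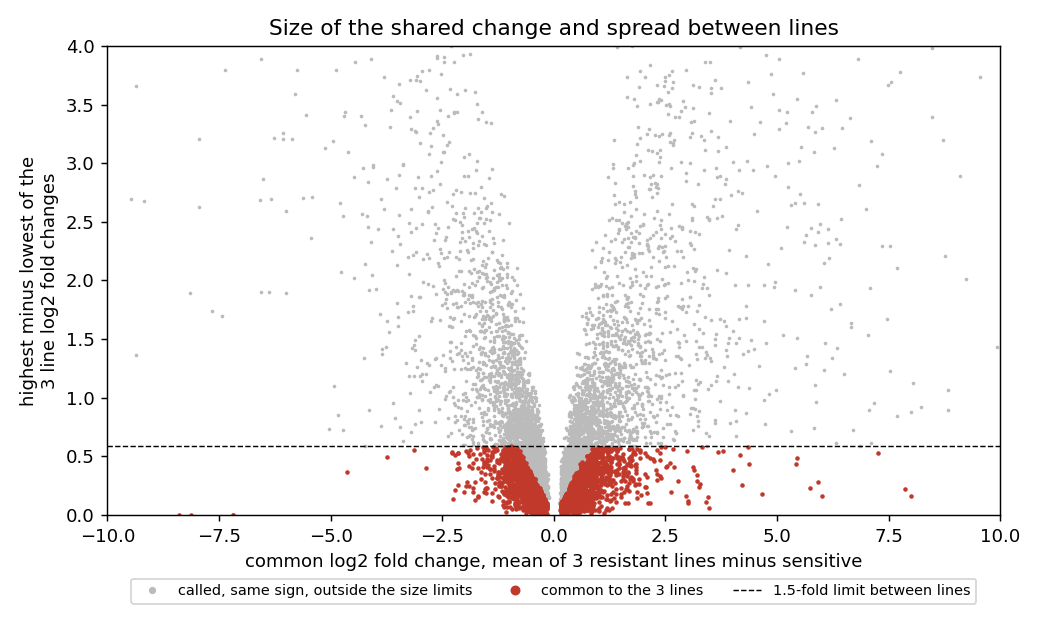
Each point is a gene called in the mean contrast with the same sign in 3 lines, with its common log2 fold change on the x axis and the spread between its 3 line log2 fold changes on the y axis. The 2412 common genes (red) lie under the dashed 1.5-fold limit, the genes outside the limits are grey, and 188 of the 8145 genes, none of them common, lie outside the axes.

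The limit is a line through a continuum. Among genes changed at least 2-fold, RGS7 (spread between lines 0.58 on the log2 scale), SEPTIN6 (0.57), ZNF589 (0.58) and LRPPRC (0.58) fell just inside it. MAP3K7CL, RAB30, THUMPD2 and PXN fell just outside, each with a spread of 0.59. LRPPRC, a regulator of mitochondrial mRNA, averaged 238 CPM in the EB-resistant, 187 CPM in the VC-resistant and 159 CPM in the DT-resistant line, against 490 to 508 CPM in sensitive libraries. PXN, the focal adhesion protein paxillin, averaged 150, 225 and 157 CPM in the same order, against 384 to 411 CPM.
Of the 5733 genes with the same sign in 3 lines that missed the limits, the EB-resistant line was the one furthest from the other two in 3585 (62.5%).

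The largest common increase at 5 CPM or more was that of PCDH18 (ENSG00000189184, chr4:137518918-137532494, hg38), a protocadherin of cell contacts. It stood at 0.087, 0.0794 and 0.174 CPM in sensitive replicates 2, 5 and 6, and at a lowest of 19.4, a median of 26.7 and a highest of 33.5 CPM in the 9 resistant libraries. These were 4, 4 and 8 reads against at least 932. No resistant library came near a sensitive one, and the log2 fold change was 7.86 ± 0.25 (SE, adjusted p = 3.4e-12), with 7.82, 7.77 and 8 in the EB-, VC- and DT-resistant lines. Here and below, adjusted p values come from edgeR's quasi-likelihood test with Benjamini-Hochberg adjustment over all tested genes, and line values are given in the order EB, VC, DT.

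GUCY1A2, a subunit of the guanylate cyclase that senses nitric oxide, was at 1.15, 0.456 and 0.805 CPM in sensitive and 38.3 to 62.5 CPM (median 43.9) in resistant libraries. PDE5A, the phosphodiesterase that breaks down cyclic GMP, was at 2.48, 2.02 and 1.52 CPM against 6.92 to 20.3 CPM (median 12.2). Neither gene's groups overlapped. Log2 fold changes were 5.92 ± 0.28 for GUCY1A2 (adjusted p = 8.43e-09) and 2.66 ± 0.30 for PDE5A (adjusted p = 9.69e-06). The 2 genes act on the same second messenger, one making and one removing it.

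FGF13, an intracellular member of the fibroblast growth factor family that binds sodium channels, went from 0.544, 0.774 and 1.0 CPM to between 35.6 and 47.0 CPM (median 42.2), with log2FC 5.73 ± 0.15 (adjusted p = 4.79e-13). ID3, an inhibitor of helix-loop-helix transcription factors and a target of BMP signalling, went from 1.81, 2.66 and 2.76 CPM to between 42.4 and 79.9 CPM (median 62.3). In ID3 replicates spread more within each line than the 3 line means of 62.9, 64.5 and 57.1 CPM did (log2FC 4.67 ± 0.32, adjusted p = 8.32e-07). Over replicates 2, 5 and 6 ID3 rose in every group. EDIL3, a secreted integrin ligand of the matrix, was the most highly counted of the leading increases, at 27.4, 24.7 and 25.2 CPM in sensitive and 395 to 636 CPM (median 480) in resistant libraries (log2FC 4.22 ± 0.14, adjusted p = 4.94e-11). All 3 genes separated the resistant from the sensitive libraries completely.

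Smaller increases of the same kind were seen for the transcription factor TBX15 (log2FC 3.25 ± 0.16), the kinase ALPK2 (2.96 ± 0.12), the synaptic adhesion protein TENM2 (2.63 ± 0.27) and the G protein regulator RGS7 (2.50 ± 0.12). SEL1L3 was uneven in the sensitive line, at 1.96, 0.576 and 0.305 CPM, and reached 6.51 to 15.7 CPM in resistant libraries (log2FC 3.48 ± 0.51, adjusted p = 0.000227). Its level fell over replicates 2, 5 and 6 in each resistant line too, with 12, 11.2 and 7.5 CPM in the EB-resistant line. GPNMB, a melanosome and lysosome glycoprotein, stood at 23.7, 19.5 and 21.9 CPM in sensitive libraries. In resistant libraries it ran from 144 to 199 CPM with a median of 168, and the line means of 183, 174 and 168 CPM lay close together. Its log2FC was 3.01 ± 0.11 (adjusted p = 1.48e-11).

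**Figure D2:**
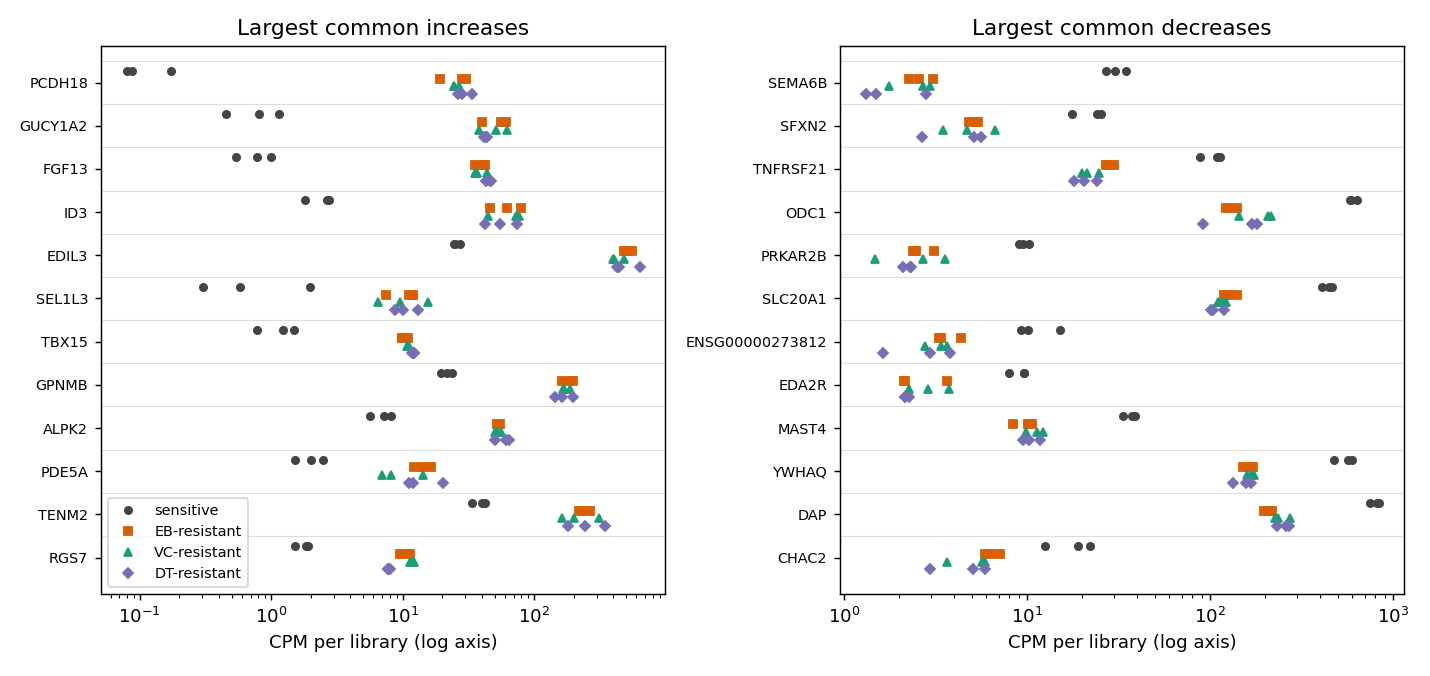
Level of the 12 largest common increases (left) and 12 largest common decreases (right) in each library, in CPM on a log axis, with 1 marker per library and a colour and shape per group. In every one of these 24 genes the 9 resistant libraries stand apart from the 3 sensitive ones, as PCDH18 does with at most 0.174 CPM against at least 19.4 CPM.

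SEMA6B, a membrane semaphorin of axon guidance on chromosome 19, showed the largest common decrease at that level. It stood at 27.1, 34.8 and 30.4 CPM in sensitive and at a lowest of 1.31, a median of 2.58 and a highest of 3.05 CPM in resistant libraries. The groups were far apart, with log2FC -3.74 ± 0.17 (adjusted p = 5.04e-10) and line values of -3.54, -3.63 and -4.03.

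SFXN2, a mitochondrial carrier of the sideroflexin family, fell from 17.6, 24.2 and 25.4 CPM to between 2.66 and 6.69 CPM (log2FC -2.21 ± 0.19). TNFRSF21, a death receptor of the TNF family, fell from 87.7, 109 and 114 CPM to between 18 and 29.9 CPM (log2FC -2.14 ± 0.088). EDA2R, the ectodysplasin receptor of the same family, was lower as well (log2FC -1.82 ± 0.16). DAP, a death-associated protein, stood at 837, 819 and 746 CPM in sensitive and 198 to 273 CPM in resistant libraries (log2FC -1.77 ± 0.063, adjusted p = 9.11e-12).

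ODC1, the enzyme that starts polyamine synthesis and a target of MYC, fell from 591, 634 and 580 CPM to between 91.7 and 216 CPM with a median of 144 (log2FC -1.97 ± 0.17, adjusted p = 4.05e-06). SLC20A1, a phosphate importer, fell from 411, 466 and 446 CPM to between 101 and 141 CPM (log2FC -1.91 ± 0.062, adjusted p = 3.94e-12). YWHAQ, the 14-3-3 theta adaptor protein, fell from 475, 570 and 594 CPM to between 134 and 174 CPM (log2FC -1.77 ± 0.07), although near copies in the genome make its count uncertain. ODC1, YWHAQ and CHAC2, an enzyme of glutathione breakdown (log2FC -1.75 ± 0.19), all lie in the first 60 Mb of chromosome 2, where tested genes were lower in general. The others of the 12 were the cAMP kinase subunit PRKAR2B, the kinase MAST4 and the long noncoding RNA ENSG00000273812, with log2FC between -1.96 and -1.81.

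In 5 common genes a whole side was at 0 counts, and only a bound can be given, set against 3 counts per library. ABCB1, the multidrug efflux pump, had 24, 12 and 19 reads in sensitive libraries and 0 in each of the 9 resistant ones, at least 6.01-fold lower. SHANK2, a synaptic scaffold gene, was at least 13.9-fold lower and SYNDIG1 at least 11.5-fold lower in the same way. ENSG00000260725 was at least 5.92-fold lower, and ENSG00000284644 at least 10.8-fold higher from 0 in the sensitive line. For these, equal size in the 3 lines follows from the zeros.

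Most genes of a list tied to ERK signalling were lower in the mean of the resistant lines, by unequal amounts in the 3 lines. Beside this and the lists below stand the shares of all tested genes, 28.9% higher, 30.3% lower and 14.1% common. The MAPK output list of 23 genes had 19 lower and 0 higher in the mean contrast, with a median log2FC of -0.96. Among called genes 16 had the same sign in all 3 lines, and 4 of the 23 were not called. Line medians were -1.59, -0.35 and -0.69, so the EB-resistant line stood lowest. DUSP6, the phosphatase that inactivates ERK, was at 108, 112 and 100 CPM in sensitive libraries and averaged 5.63, 38.1 and 17.1 CPM in the lines (test of equality among resistant lines, adjusted p = 1.34e-07). CCND1, cyclin D1, was at 394, 435 and 435 CPM and averaged 37.6, 179 and 138 CPM (adjusted p = 5.81e-09 among lines). Both were far below the sensitive line in every resistant library, with common log2FC of -2.79 ± 0.12 and -2.11 ± 0.086, and both missed the size limits.

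SPRED1, an inhibitor that brings neurofibromin to RAS, was the only MAPK output gene to meet them. It fell from 91.7, 84.9 and 83.3 CPM to between 41.6 and 69.6 CPM (median 57.1), with log2FC -0.63 ± 0.074 and line values of -0.90, -0.45 and -0.54. The 3 lines still differed (adjusted p = 0.00168), and SPRED1 met the size limits in 14 of 22 alternative settings. SPRY4, an inhibitor of receptor signalling, averaged 0.936 CPM in the EB-resistant and 45.4 CPM in the VC-resistant line, with 44.2 to 56.5 CPM in sensitive libraries. The DT-resistant line had 1070, 1047 and 659 SPRY4 reads, against 2597, 2522 and 2033 in the sensitive line. ETV4, an ETS transcription factor under ERK control, was at 65.5 to 72.9 CPM in sensitive libraries and averaged 5.07, 55.0 and 43.0 CPM. ETV5, its relative, averaged 71.9, 172 and 148 CPM, against 200 to 226 CPM.

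Of 21 genes of the RAS to ERK cascade, 6 rose and 9 fell (median log2FC -0.063), and 4 were common. Shares over all tested genes were 28.9% higher, 30.3% lower and 14.1% common. NRAS itself was at 362, 389 and 379 CPM in sensitive and 353 to 426 CPM in resistant libraries. These ranges overlapped, and the contrast gave log2FC 0.06 ± 0.048 (adjusted p = 0.337). KSR1, a scaffold that holds RAF and MEK together, rose from 3.24, 2.94 and 3.7 CPM to between 4.58 and 7.13 CPM (log2FC 0.79 ± 0.15, adjusted p = 0.000352). MAP2K2, which encodes MEK2, a target of the MEK inhibitors, rose from 103, 109 and 95.8 CPM to between 115 and 149 CPM (log2FC 0.36 ± 0.073, adjusted p = 0.000677).
SOS1, the exchange factor that loads RAS with GTP, fell from 67.2, 65.9 and 61.7 CPM to between 36.4 and 43.1 CPM (log2FC -0.67 ± 0.064), as did SHOC2, which helps to activate RAF, from 73.4 to 76.7 CPM to between 53.2 and 60.5 CPM (log2FC -0.42 ± 0.053). In these 4 genes no resistant library overlapped a sensitive one. BRAF, by contrast, averaged 28.8 CPM in the EB-resistant and 46.3 and 46.5 CPM in the other lines, against 28.2 to 35.4 CPM in sensitive libraries, and was not common.

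Of 19 receptor tyrosine kinases, 8 rose and 6 fell. AXL, a receptor that marks dedifferentiated melanoma cells, fell from 2490, 2310 and 1940 CPM to between 1250 and 1570 CPM with a median of 1430 (log2FC -0.67 ± 0.065, adjusted p = 4.62e-07). EGFR fell from 311, 267 and 227 CPM to between 129 and 183 CPM with a median of 161 (log2FC -0.77 ± 0.084, adjusted p = 1.87e-06). DDR2, a collagen receptor, was at 367, 309 and 247 CPM in sensitive and 368 to 481 CPM in resistant libraries, so that its ranges almost touched (log2FC 0.43 ± 0.096, adjusted p = 0.00138). These were the only 3 common members of 19, where 14.1% of all tested genes were common, and each changed by less than 2-fold.

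The list of the dedifferentiated and neural crest state had 3 higher and 9 lower genes of 15 tested, with a median of -0.71. NGFR, the receptor that marks the neural crest-like state, was low from the start, at 1.98, 1.96 and 1.61 CPM, and was between 0.0625 and 0.34 CPM in resistant libraries (log2FC -3.60 ± 0.28, outside the size limits). TWIST1, a mesenchymal transcription factor, rose from 16.3, 15.9 and 17 CPM to between 20.3 and 37.8 CPM (log2FC 0.74 ± 0.11). ITGA6, an integrin chain that binds laminin, fell from 460, 410 and 353 CPM to between 143 and 205 CPM (log2FC -1.21 ± 0.075). Of 10 melanocyte lineage genes 4 rose and 4 fell, GPNMB being common and higher. PMEL met the rule as lower at very low counts, and its call was lost on leaving out sensitive replicate 6 (log2FC -0.54, adjusted p = 0.222).

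Genes of DNA replication fell together and without an exception among those called. Of 33 tested, 0 rose and 27 fell, with a median log2FC of -0.66 and line medians of -0.46, -0.57 and -0.92. The 9 common members were MCM2 and MCM7 of the replicative helicase, RFC3 and RFC5 of the clamp loader, POLD1, POLE2 and PRIM1 of the polymerases, CHAF1A of chromatin assembly and RRM2.
RRM2, the regulated subunit of the enzyme that makes deoxyribonucleotides, fell from 267, 373 and 423 CPM to between 58.6 and 138 CPM with a median of 112 (log2FC -1.71 ± 0.18, adjusted p = 1.82e-05). It lies in the first part of chromosome 2, at chr2:10120698-10211725. RFC5 fell from 53.2, 66.3 and 73.4 CPM to between 34.0 and 46.6 CPM (log2FC -0.72 ± 0.085), and POLD1 from 78.7, 94.1 and 96.2 CPM to between 55.4 and 70.0 CPM (log2FC -0.49 ± 0.072). Sensitive replicate 2 was the lowest of the sensitive libraries in all 3 genes, yet still above every resistant library.

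Mitotic genes fell less. Of 30 tested, 2 rose and 20 fell (median -0.29), and 6 were common, all lower. KIF11, the spindle motor, fell from 179, 205 and 230 CPM to between 95.4 and 134 CPM (log2FC -0.73 ± 0.078). TPX2, a spindle assembly factor, fell from 753, 860 and 920 CPM to between 463 and 624 CPM (log2FC -0.55 ± 0.076). MKI67, the proliferation marker, was at 372, 402 and 480 CPM against 262 to 346 CPM (log2FC -0.44 ± 0.087, adjusted p = 0.000472). CDKN1A, which encodes the cell cycle inhibitor p21, was lower too, with 86.9, 69.0 and 68.7 CPM in sensitive libraries and line means of 20, 3.83 and 3.94 CPM. The lines differed in it (adjusted p = 0.000354), and of 25 p53 targets 3 rose, 9 fell and only XPC, a DNA damage sensor, was common and lower (log2FC -0.38 ± 0.06).

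Both sides of energy metabolism appeared among the common genes, in opposite directions. Of 41 subunits of the respiratory chain, 23 rose and 4 fell, with a median of 0.25 and line medians of 0.25, 0.28 and 0.23. This list held 12 common higher genes. CYC1, cytochrome c1 of complex III, stood at 94.5, 94.6 and 95.2 CPM in sensitive and 148 to 174 CPM in resistant libraries (log2FC 0.72 ± 0.056, adjusted p = 4.58e-08). NDUFB5 and NDUFA2 of complex I rose by 0.69 ± 0.062 and 0.70 ± 0.08 on the log2 scale. The other common higher members were NDUFA1, NDUFA8, NDUFB9, NDUFS8 and NDUFV1 of complex I and COX6B1, COX6C, COX7B and COX7C of complex IV. The 1 common lower member, NDUFB8, lost its call without sensitive replicate 5 (log2FC -0.27, adjusted p = 0.0828) and without sensitive replicate 6 (log2FC -0.19, adjusted p = 0.19).

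Glycolysis genes fell where called in the mean contrast, by unequal amounts in the lines. Of 24 tested 0 rose and 18 fell (median -0.24), and 4 were common. The EB-resistant line stood lowest, with line medians of -0.49, -0.11 and -0.26. Of the 18 called genes, 14 had the same sign in every line. PKM, pyruvate kinase, was at 2200, 2680 and 2730 CPM in sensitive and 1600 to 1990 CPM in resistant libraries (log2FC -0.49 ± 0.069). PGK1 and PGAM1 fell by 0.50 ± 0.069 and 0.85 ± 0.091 on the log2 scale, both with processed copies in the genome that make their counts uncertain. Hypoxia response genes were mixed, with 10 higher and 4 lower of 19, and of 23 cholesterol synthesis genes 5 rose and 4 fell with a median of -0.013.

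Genes of the BCL2 family, which set the balance of cell survival and death, were mostly lower where called. Of 17 tested 3 rose and 10 fell, and the 4 common genes were all lower. BCL2L1, which encodes the survival protein BCL-XL, fell from 321, 338 and 314 CPM to between 114 and 184 CPM with a median of 136 (log2FC -1.18 ± 0.056, adjusted p = 2.27e-10). MCL1, a short-lived survival protein, fell from 621, 559 and 482 CPM to between 228 and 382 CPM with a median of 260 (log2FC -0.99 ± 0.073, adjusted p = 2.51e-08). Both fell least in the VC-resistant line, with -0.87 and -0.66, and the lines differed (adjusted p = 4.13e-05 and 0.000249). BNIP3 and BNIP3L, receptors that send mitochondria to autophagy, were the other common members, BNIP3 at log2FC -0.75 ± 0.055. BCL2L11, which encodes the death inducer BIM, stood at 11.7 to 14.3 CPM in sensitive and 8.3 to 15.0 CPM in resistant libraries, with no call (adjusted p = 0.69).

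**Figure D3:**
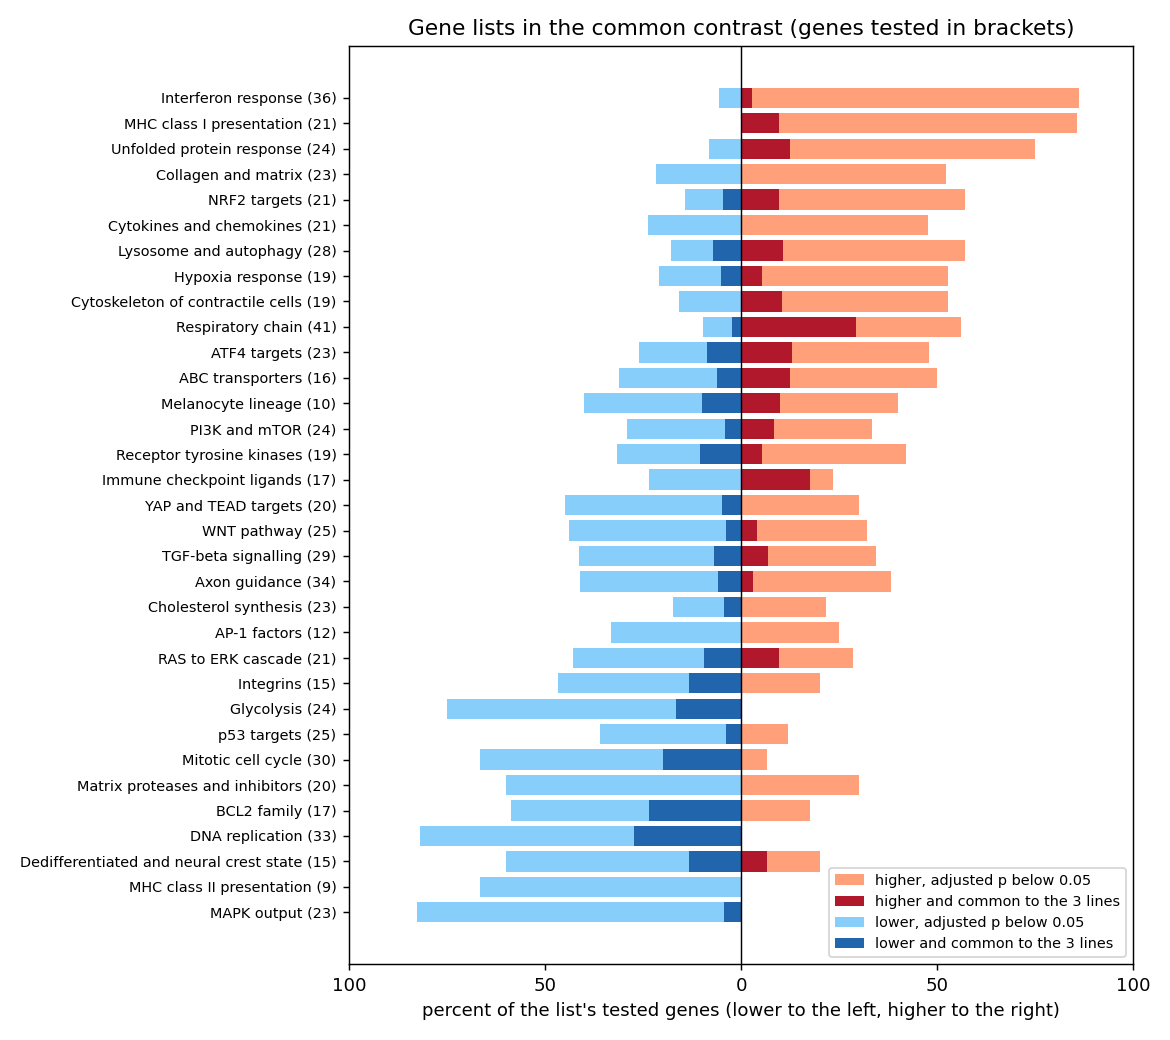
Share of each gene list's tested genes called lower (left) or higher (right) in the mean contrast, with the common genes in the darker shade, ordered by the lists' median log2 fold change. Interferon genes reach 31 higher of 36 with 1 common, MAPK output 19 lower of 23 with 1 common, and the respiratory chain 23 higher of 41 with 12 common.

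Interferon-stimulated genes were higher in the mean contrast, again by unequal amounts. Of 36 tested 31 rose and 2 fell, with a median of 1.28 and line medians of 0.92, 1.17 and 1.71. Only IFIT1, an RNA-binding antiviral protein, was common. It stood at 5.53, 5.46 and 8.22 CPM in sensitive libraries and at 19.9 to 27.3 CPM with a median of 23.1 in resistant ones, with no overlap. Its log2FC was 1.87 ± 0.14 (adjusted p = 2.14e-08), with 1.82, 2.00 and 1.80 in the lines. Of 21 genes of MHC class I presentation 18 rose and 0 fell (median 0.73), and HLA-E and PSMB9 were common. PSMB9, an immunoproteasome subunit, rose from 18.1, 18.5 and 19.8 CPM to between 31.4 and 54.6 CPM (log2FC 0.96 ± 0.09), and HLA-E by 0.63 ± 0.095, a count that near copies make uncertain. B2M, the light chain of class I, averaged 650, 1080 and 1550 CPM in the lines against 599 to 652 CPM in sensitive libraries and was not common. MHC class II genes had 0 higher and 6 lower of 9, and 0 common.

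Ligands that T cells read were split. CD274, which encodes PD-L1, averaged 41.6 CPM in the EB-resistant and 238 and 275 CPM in the VC- and DT-resistant lines, against 102 to 150 CPM in sensitive libraries. The mean contrast therefore gave log2FC 0.13 ± 0.17 (adjusted p = 0.536), and the lines differed (adjusted p = 2.64e-06). Of 17 immune checkpoint ligands 4 rose and 4 fell, and 3 were common and higher, as were 6.89% of all tested genes. CD70, the ligand of CD27, rose from 5.79, 5.0 and 5.09 CPM to between 15.3 and 24.9 CPM (log2FC 1.82 ± 0.14). TNFSF9, the ligand of 4-1BB, rose from 1.35, 0.754 and 0.892 CPM to between 2.66 and 5.04 CPM (log2FC 1.87 ± 0.25), and CD276, or B7-H3, from 14.9, 15.4 and 17.3 CPM to between 19.6 and 41.2 CPM (log2FC 0.99 ± 0.14). Of 21 cytokines and chemokines 10 rose and 5 fell, with 0 common.

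RefSeq promoter windows (GRCh38.p14, 250 bases before to 50 after a transcript start) were found for 11351 tested genes, 1784 of them common, and 24 short motifs were searched on both strands. An interferon-stimulated response element, written GAAA, any 2 bases, GAAA, occurred in 3.86% of windows of common higher genes, 1.62% of common lower genes and 3.0% of all tested genes. The E2F core TTCCCGC occurred in 8.51%, 12.1% and 9.22%. These 2 of the 24 motifs were singled out after their shares had been seen to differ between the directions. Windows of 1 gene overlap, and over genes with a single window, the first count made, the shares were 4.97%, 0.75% and 2.99% for the response element and 8.77%, 14.5% and 10.3% for the E2F core. An AP-1 site, TGANTCA, was in 6.1%, 4.87% and 5.54% of windows, and in 5.63%, 3.3% and 4.7% of genes with a single window. The ETS site CCGGAAGT was in 7.55%, 7.38% and 6.98% of windows, and in 9.77%, 10% and 9.56% of genes with a single window. A match of letters shows no binding. Below are the stretches before the start of IFIT1 (chr10:89392462-89392574, plus strand) and TNFSF9 (chr19:6530787-6530886, plus strand), shown as common higher genes with the response element, and of XPC (chr3:14178690-14178851, minus strand), shown as a common lower gene with the E2F core. Capitals mark the matches, read on either strand.
IFIT1: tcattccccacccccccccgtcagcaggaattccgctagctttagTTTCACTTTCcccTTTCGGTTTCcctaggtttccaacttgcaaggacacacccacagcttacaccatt
TNFSF9: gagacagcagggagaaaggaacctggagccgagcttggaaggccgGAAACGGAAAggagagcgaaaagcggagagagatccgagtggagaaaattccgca
XPC: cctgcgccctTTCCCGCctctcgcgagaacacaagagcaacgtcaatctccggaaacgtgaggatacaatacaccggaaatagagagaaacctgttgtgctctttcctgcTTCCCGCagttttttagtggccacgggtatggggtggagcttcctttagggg
Counted from the RefSeq transcript start of each window, the 2 matches of IFIT1 begin 116 and 103 bases before it, that of TNFSF9 194 bases before, and those of XPC 240 and 140 bases before. The deposited table gives other gene bounds for IFIT1, starting inside the printed stretch at 89392546, and for XPC, ending on its 5′ side at 14178621.

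Genes of protein folding and degradation rose in part. Of 24 genes of the unfolded protein response 18 rose and 2 fell (median 0.64, line medians 0.14, 0.59 and 1.05), and 3 were common. DNAJB11, a chaperone partner of the endoplasmic reticulum, rose from 49.9, 50.1 and 51.4 CPM to between 64.6 and 105 CPM (log2FC 0.71 ± 0.079). CRELD2, a secreted stress protein, rose by 0.56 ± 0.088, and XBP1, the transcription factor of the response, by 0.40 ± 0.097 with an overlap between groups (85.6 to 117 against 114 to 163 CPM). Of 23 ATF4 targets 11 rose and 6 fell. PHGDH, which starts serine synthesis, was uneven in sensitive libraries (244, 175 and 145 CPM) and at 258 to 412 CPM in resistant ones (log2FC 0.82 ± 0.12). SHMT2, which passes serine on to one-carbon metabolism, moved the other way, from 648, 500 and 402 CPM to between 312 and 411 CPM (log2FC -0.55 ± 0.11).

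FTH1, the ferritin heavy chain that stores iron, was common and higher. It stood at 543, 509 and 468 CPM in sensitive and 1250 to 2020 CPM with a median of 1820 in resistant libraries (log2FC 1.74 ± 0.081, adjusted p = 1.87e-10). The VC-resistant line rose least, at 1370 CPM against 1900 and 1870 CPM (adjusted p = 0.000394 among lines), and processed copies of FTH1 make its count uncertain. Of 21 NRF2 targets, to which it belongs, 12 rose and 3 fell. Line medians were 1.29, 0.13 and 0.19, and 12 called genes had the same sign in all 3 lines. Of 28 lysosome and autophagy genes 16 rose and 5 fell (median 0.39, line medians 0.12, 0.55 and 0.52). Among called genes of this list 14 had the same sign in all 3 lines. The 3 common higher ones were PSAP, which yields activators of lysosomal enzymes (log2FC 0.72 ± 0.092), the membrane protein LAMP1 (0.67 ± 0.089) and the proton pump accessory ATP6AP1 (0.89 ± 0.097). All 3 separated the groups, ATP6AP1 with 65.9 to 68.3 CPM against 104 to 172 CPM.

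TGFBR2, the receptor that binds TGF-beta, fell from 163, 191 and 186 CPM to between 66.4 and 91.8 CPM (log2FC -1.21 ± 0.064, adjusted p = 6.68e-10). Among 29 genes of TGF-beta signalling 10 rose and 12 fell (median -0.0024), and ID3, above, was the largest increase. NRP1, a co-receptor of semaphorins and VEGF, fell from 629, 571 and 536 CPM to between 150 and 202 CPM with a median of 176 (log2FC -1.71 ± 0.07, adjusted p = 4.94e-11). EFNB1, an ephrin, fell by 1.03 ± 0.1 on the log2 scale. Among 34 axon guidance genes 13 rose and 14 fell, and among 25 of the WNT pathway 8 rose and 11 fell. DKK3, a secreted member of the Dickkopf family, was common and higher (log2FC 0.65 ± 0.082), and AXIN2, a target of WNT signalling, common and lower at about 1 CPM (log2FC -0.83 ± 0.24).

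Of the adhesion and matrix lists only the integrins held common members. Over all tested genes 14.1% were common, with 7.2% common and lower. Of 15 integrin genes 3 rose and 7 fell, ITGA6 and ITGA4 being common and lower (log2FC -1.21 ± 0.075 and -0.58 ± 0.074). Of 23 collagen and matrix genes 12 rose and 5 fell, and of 20 matrix proteases and inhibitors 6 rose and 12 fell, with 0 common in both. Fibroblast markers, some of them collagens, summed to 110 to 149 CPM in sensitive, 528 to 591 in EB-resistant, 281 to 314 in VC-resistant and 362 to 468 CPM in DT-resistant libraries. All 9 were in the table, DCN was at 0 in the sensitive and COL1A2 at 0 in the DT-resistant line, 5 of the 6 tested rose and 0 were common. Their part in the matrix counts was not tested. Of 20 YAP and TEAD targets 6 rose and 9 fell, and of 12 AP-1 factors 3 rose and 4 fell, with AXL the 1 common gene of the first and 0 of the second. MYL9, the light chain of smooth muscle myosin, rose from 10.4, 12.4 and 12.2 CPM to between 19.2 and 35.0 CPM (log2FC 1.17 ± 0.12), in a list of contractile cytoskeleton with 10 higher and 3 lower of 19.

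Among 24 genes of PI3K and mTOR signalling 8 rose and 7 fell, where 28.9% and 30.3% of all tested genes did. PIK3R1, the regulatory subunit of PI3K, rose from 57, 60 and 59.9 CPM to between 76.5 and 99.3 CPM (log2FC 0.52 ± 0.059, adjusted p = 2.14e-06). TSC1, an inhibitor of mTOR, rose by 0.45 ± 0.066, and AKT1 fell by 0.30 ± 0.058 on the log2 scale. Of 16 ABC transporters 8 rose and 5 fell. ABCC1, an efflux pump for glutathione conjugates, rose from 38.9, 37.7 and 35.1 CPM to between 44.6 and 57.9 CPM (log2FC 0.47 ± 0.078), whereas ABCB1 went to 0 reads as given above.

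Some large differences had the same sign in the 3 lines but unequal size, and the 2 largest per direction that miss the size limits follow. ESM1, the gene of endocan, a secreted proteoglycan, fell from 5417, 6359 and 4549 reads to at most 7 reads in any resistant library, with 0 in all 3 DT-resistant ones. NTSR1, the neurotensin receptor, went from 1211, 798 and 610 reads to at most 9. KCNE4, a potassium channel subunit, had 7, 4 and 12 reads in sensitive libraries and averaged 52.6, 15.1 and 13.7 CPM in the lines. The long noncoding RNA ENSG00000227706 had 1, 2 and 0 reads in sensitive libraries and averaged 48.6, 137 and 17.6 CPM. A mean over lines can also hide opposite changes. GTSF1, a gene of the germline, was at 16.9 to 19.7 CPM in sensitive libraries, at 0 reads in the EB-resistant line and at 48.1 and 41.4 CPM on average in the other lines. MYC averaged 37.9 CPM in the EB-resistant and 147 and 127 CPM in the other lines, against 83.9 to 108 CPM, with a mean contrast of -0.09 ± 0.25 (adjusted p = 0.77).

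Common genes were spread unevenly over the chromosomes, and their direction went with the chromosome. On chromosome 22, 50 of 386 tested genes were common and higher (13%) and 2 common and lower. Chromosome 11 had 138 higher (14.8%) and 21 lower of 933, chromosome 5 had 106 (12.7%) and 40 of 834, chromosome 13 had 38 (11.6%) and 10 of 327, and chromosome X had 72 (11.7%) and 34 of 613. In the other direction, chromosome 10 had 19 higher and 126 lower (18.8%) of 669, chromosome 12 had 19 and 132 of 945, chromosome 18 had 7 and 35 of 255, and chromosome 4 had 17 and 70 of 615. Chromosome 2 had 31 higher and 137 lower of 1160. The shares over all chromosomes are the 6.89% and 7.2% given above.

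**Figure D4:**
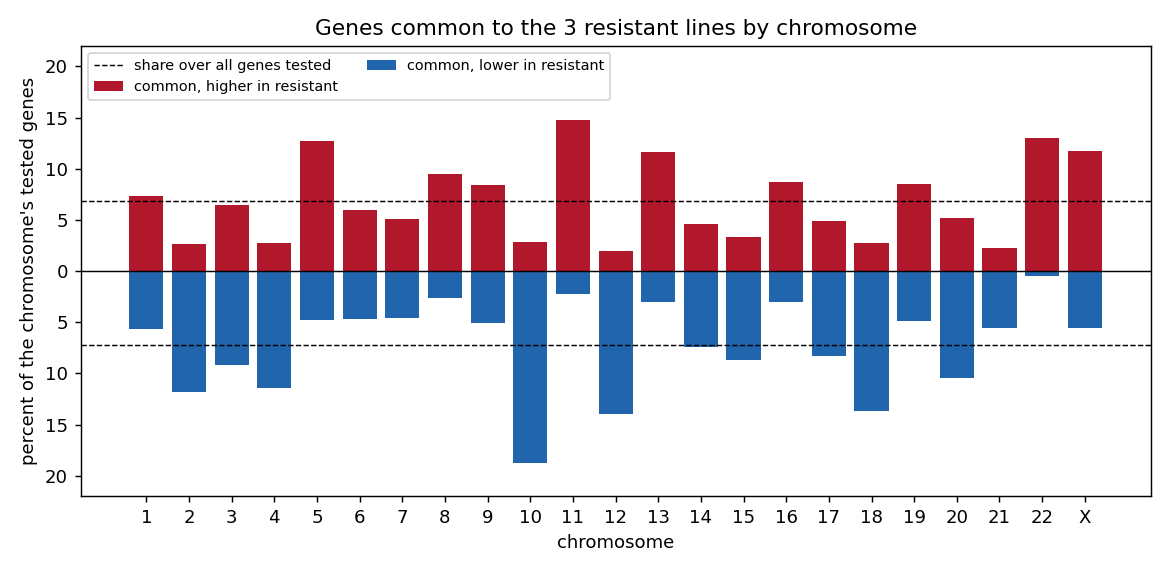
Percent of each chromosome's tested genes that are common and higher (up, red) or common and lower (down, blue), with dashed lines at the shares over all tested genes. The upward shares are highest on chromosomes 11 (14.8%), 22 (13%) and 5 (12.7%), and the downward share on chromosome 10 (18.8%).

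Along chromosome 2 the size of the decrease changed, and along chromosome 5 the direction. The split points below were picked after the medians of 10 Mb windows had been seen. In the first 60 Mb of chromosome 2, 190 of 255 tested genes were called lower and 17 higher, with 64 common and lower and 0 common and higher. The median log2FC there was -0.74, with -0.96, -0.62 and -0.64 in the lines. Over the rest of the chromosome the median was -0.11, with 348 genes called lower and 190 higher. There 73 genes were common and lower and 31 common and higher. In the first 50 Mb of chromosome 5 the median was -0.37, with 33 common lower genes and 1 common higher, and beyond it 0.29, with 7 common lower and 105 common higher of 675. DAP, a common lower gene, lies in the first part. The second holds the common higher genes EDIL3 and TENM2 and also MAST4, one of the 12 largest common decreases. Of 290 windows with at least 15 tested genes, 10 had a median at or below -0.5 and 3 at or above 0.5. Other chromosomes changed along their length as well. On chromosome 3 window medians were -0.39, -0.32 and -0.36 from 30 to 60 Mb and 0.052 to 0.33 beyond 90 Mb. On chromosome 17 they were -0.4 and -0.29 in the first 20 Mb and -0.087 to 0.079 beyond.

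The medians by library were tight. In the first 60 Mb of chromosome 2, the 3 sensitive libraries lay at -0.013, -0.0063 and 0.018 on the log2 scale against their mean. The EB-resistant libraries lay at -0.98, -0.97 and -0.96, the VC-resistant at -0.62, -0.59 and -0.58, and the DT-resistant at -0.67, -0.59 and -0.59. Chromosome 22 differed more between lines, at 0.48 to 0.51 in the EB-resistant libraries and 0.045 to 0.12 in the others. NRP1, KIF11, MKI67, SHOC2 and PGAM1 are common lower genes on chromosome 10, where the median log2FC was -0.33, and IFIT1, MXI1 and PSAP are common higher genes on the same chromosome. SOS1, RRM2 and LRPPRC lie in the first 60 Mb of chromosome 2, and FTH1 and DKK3 on chromosome 11, where the median was 0.20. DNA copy number was not analysed here, and the part of gene position in the changes of single genes was not tested.

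**Figure D5:**
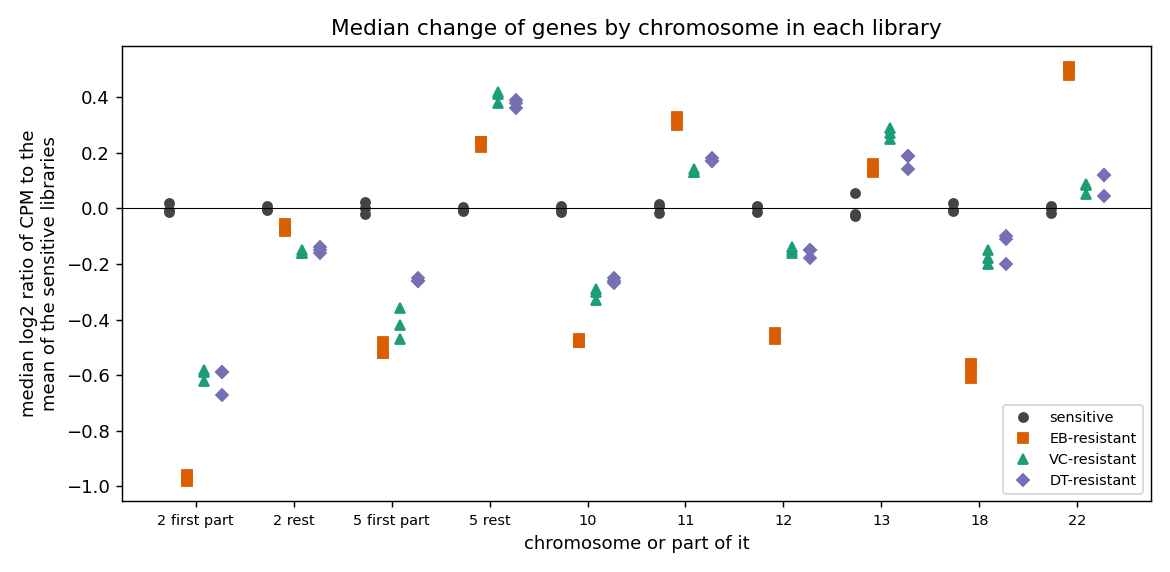
Median over genes of the log2 ratio of each library's CPM to the mean of the sensitive libraries, for chromosomes or parts of them named in the text, with 1 marker per library ("first part" is the first 60 Mb of chromosome 2 and the first 50 Mb of chromosome 5). Sensitive libraries lie at 0 and the libraries of each resistant line lie close together, as on the first part of chromosome 2 with -0.98 to -0.96 in the EB-resistant line.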

How the data were processed

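RNA of 12 cultures was measured as polyadenylated, strand-specific, paired-end libraries, per the labels' protocols. The authors deposited a table of raw counts per gene, whole numbers used here as they stand. Their normalised table was not used. Per the submitters' processing notes, the tools were bcl2fastq 2.20.0, STAR 2.7.10b, featureCounts 2.0.1 and DESeq2 1.38.3, with hg38. Not given in the sources used here are the doses, the annotation release and whether counting used strand, so reads of overlapping genes may not be told apart. All 12 columns were matched to a sample by label, and 0 were left over.

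In edgeR 4.0.16 under R 4.3.3, filterByExpr removed genes of low counts and TMM scaled the libraries. A robust quasi-likelihood fit with 4 group means covered all 12 libraries and left 8 residual degrees of freedom. Voom came from limma 3.58.1. The main contrast was the mean of the 3 resistant group means minus sensitive, and Benjamini-Hochberg adjustment ran over 17114 genes with a threshold of 0.05. Standard errors were back-calculated from the F statistic. Equality of the 3 resistant lines was tested with 2 numerator degrees of freedom. Named genes are the 12 largest common changes per direction that reach 5 CPM in each library on the higher side, up to 3 common members per list and direction, the 2 largest per direction outside the size limits, the 2 just inside and 2 just outside, and 20 genes of known interest. Other genes were named after their values were seen: the members listed for replication, respiration, BCL2, and the genes at 0. Members, limits and gene lists were chosen with earlier results of these data known. Alternatives were RLE (the size factors of DESeq2) and upper-quartile scaling, 2 other filters, DESeq2 1.42.0, limma-voom, a replicate block, leaving out each library, means of 2 lines and other size limits. Chromosome medians per library used a pseudocount of 0.5 CPM. Bounds against 0 reads use 3 counts per library and cover counting error only. On simulated counts of 16642 genes, 42, 46 and 47 of 50 genes with a shared change of 1.5-, 2- and 4-fold were found common. The changed genes were drawn from those averaging at least 50 counts, and far fewer genes changed than in the data. Recovery at lower counts, or where most genes change, was not simulated. Of 16392 unchanged genes 8 were called and 4 met the common rule. Of 100 genes with unequal changes 0 met it, but these were set far beyond the size limits. That count therefore says nothing about genes near the limits. Figures were drawn with matplotlib 3.10.9.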

Additional observations from a re-analysis of the deposited data

Results flagged for a closer look

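The 3 resistant lines differed from each other, by the test of equality that leaves the sensitive libraries aside, in 53 of the 120 named genes. The adjusted p of that test stands in brackets after each gene. Of these, 31 met the size limits for common genes, so the lines differ by less than 1.5-fold while the difference is larger than the spread between replicates.

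Among common higher genes they were RGS7 (0.00133), TWIST1 (0.0058), PSMB9 (0.000599), CD276 (0.0159), NDUFB5 (0.0335), NDUFA2 (0.0314), DNAJB11 (0.0027), PSPH (0.0101), PHGDH (0.0468), FTH1 (0.000394), ATP6AP1 (0.0161), DKK3 (0.00627), MYL9 (0.0389), PIK3R1 (0.0174), TSC1 (0.0116) and SEPTIN6 (0.000171). Among common lower genes they were TNFRSF21 (0.00827), SLC20A1 (0.0447), DAP (0.0185), SPRED1 (0.00168), AXL (0.0264), ITGA6 (0.0486), MAD2L1 (0.00962), RFC5 (0.0321), BCL2L1 (4.13e-05), BNIP3 (0.00358), MCL1 (0.000249), NARS1 (0.0349), TGFBR2 (0.0205), ZNF589 (0.0157) and LRPPRC (2.72e-06). The remaining 22 genes missed the limits or were not called in the mean contrast: GTSF1 (1e-12), ETV4 (3.35e-12), CCND1 (5.81e-09), SPRY4 (1.17e-07), DUSP6 (1.34e-07), ETV5 (5.51e-07), PXN (1.09e-06), KCNE4 (1.21e-06), CD274 (2.64e-06), RAB30 (3.19e-05), B2M (4.81e-05), BRAF (0.000103), ENSG00000227706 (0.000269), CDKN1A (0.000354), ESM1 (0.000412), SPRY2 (0.000475), THUMPD2 (0.000829), MYC (0.00114), MITF (0.0107), MAP3K7CL (0.0109), NTSR1 (0.0135) and NRAS (0.0349).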

How the results depend on the processing

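Over 22 alternatives, 2586 of 2636 recomputed values for 120 named genes kept their direction and side of the threshold. Counts were also made with other size limits and with a call asked for in each line. Over all of these settings 161 of 168 counts stayed within 1.5 times. Averaging only VC- and DT-resistant lines left 3616 higher and 3675 lower common genes. Only EB- and DT-resistant lines left 1933 and 1946, and only EB- and VC-resistant lines 1804 higher. Limits are easier to meet with 2 lines than with 3, but each of these settings had 2 lines. Their totals were 7291, 3879 and 3486 in the same order, the largest being that without the EB-resistant line. A limit of 1.2-fold between lines left 664 higher and 714 lower. Of the 2412 common genes, 2363 were shared under RLE scaling, 2093 under upper-quartile scaling and 2339 with DESeq2. Leaving out 1 library gave 1094 to 1229 common higher and 1080 to 1296 common lower genes, with 4284 to 5004 higher and 4420 to 5275 lower in the mean contrast. Of 96 named common genes, 64 met the rule in every setting that could be fitted, and PMEL in 3 of 21. The values that changed sign had no call in the main contrast, GTSF1 excepted: MYC at -0.22 to 0.013 over the left-out libraries (0.013 without sensitive replicate 5) and 0.52 with VC- and DT-resistant lines only, CD274 at -0.003 (without sensitive replicate 6) to 0.25, -0.25 with EB- and DT-resistant and -0.35 with EB- and VC-resistant lines, BCL2L11 at -0.14 to 0.018, with 0.018 without sensitive replicate 6 and 0.0029 without EB-resistant replicate 2, and GTSF1 at 1.29 with VC- and DT-resistant lines only. Calls that a single left-out library ended include GCLM (-0.17, adjusted p = 0.231, without sensitive replicate 6), MAP1LC3B (-0.08, adjusted p = 0.323, without sensitive replicate 2) and ATF4 (0.16, adjusted p = 0.0706, without sensitive replicate 6). With the replicate number as a block, 1198 genes were common and higher and 1248 common and lower, with 2365 shared. Same-numbered deviations correlated at 0.00144 to 0.0885 between sensitive and resistant libraries, under the limit of 0.1 for pairing. The range was 0.151 to 0.337 for VC- with DT-resistant, 0.034 to 0.11 for EB- with DT-resistant and 0.00931 to 0.0983 for EB- with VC-resistant libraries. Each pair of groups has 6 libraries. For sensitive with DT-, VC- and EB-resistant, 6, 5 and 4 of them correlated best with their own number. The counts were 6 for VC- with DT-resistant, 5 for EB- with DT-resistant and 4 for EB- with VC-resistant, a hint from the data only. Depth limits genes of few reads, such as PMEL and INHBB.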
